A study of Mus musculus with 9 samples.

Results

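Hippocampal transcripts of young 3xTG mice were set against those of middle-aged wild-type (WT) mice, 2 conditions that were never hybridised together. The contrast ran through a common reference, the WT hippocampus at 3 months. It is the mean of the 3 arrays comparing 3xTG at 3 months with WT at 3 months, minus the mean of the 3 arrays comparing WT at 12 months with WT at 3 months. These 6 arrays are part of the 9 in the series, and 4840 genes of the 16637 annotated on the array were listed on at least 2 arrays of each comparison. A positive difference means that, relative to the median of each array, the transcript was higher in young 3xTG than in WT at 12 months. A value near 0 means that the 2 comparisons lay alike relative to those medians. Both readings shift with the centring described below.

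The young 3xTG mice were 2 females, numbered 22 and 23, whose strain label names, among its parts, B6, 129 and the transgenes APPSwe and tauP201L. The WT mice were females with the strain label 129SV with C57BL6: mice 24 and 25 at 12 months and mice 15 and 16 at 3 months. The wording of the strain background thus differs along with the genotype, and the 2 cannot be told apart in the contrast. Each RNA came from 1 hippocampus and was linearly amplified before it was labelled with Cy3 or Cy5. Mouse 22 was on 2 of the 3 young 3xTG arrays and mouse 25 on 2 of the 3 ageing arrays, so 3 arrays are not 3 animals, and the design text counts some arrays as technical replicates.

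The genetic changes of the 3xTG line include mutant human APP and tau transgenes, driven by Thy1 regulatory sequences in neurons. It is used as a model in which amyloid and tau pathology builds up with age. APP is cut by secretases to release amyloid beta, and tau is a protein that binds axonal microtubules. The hippocampus, where memories are formed, holds pyramidal cells in the CA fields and granule cells in the dentate gyrus. Whether a young animal with these alleles looks like an older normal one is the question the contrast addresses.

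The deposited ratios had a feature that bears on every value below. The base of the logarithm is not stated and was read as 2 from the values, and no listed value lay between -0.5 and 0.5. Between 45.7 and 54.1% of the 29922 probes were listed per array. The array medians were 0.843, -0.835 and 0.965 on young 3xTG arrays 1, 2 and 3 and 1.415, 2.335 and 1.955 on the ageing arrays. Of the listed ratios, 59.8, 39.4 and 61.7% were above 0 on the young 3xTG arrays and 74.4, 87.3 and 81.1% on the ageing arrays.

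**Figure D1:**
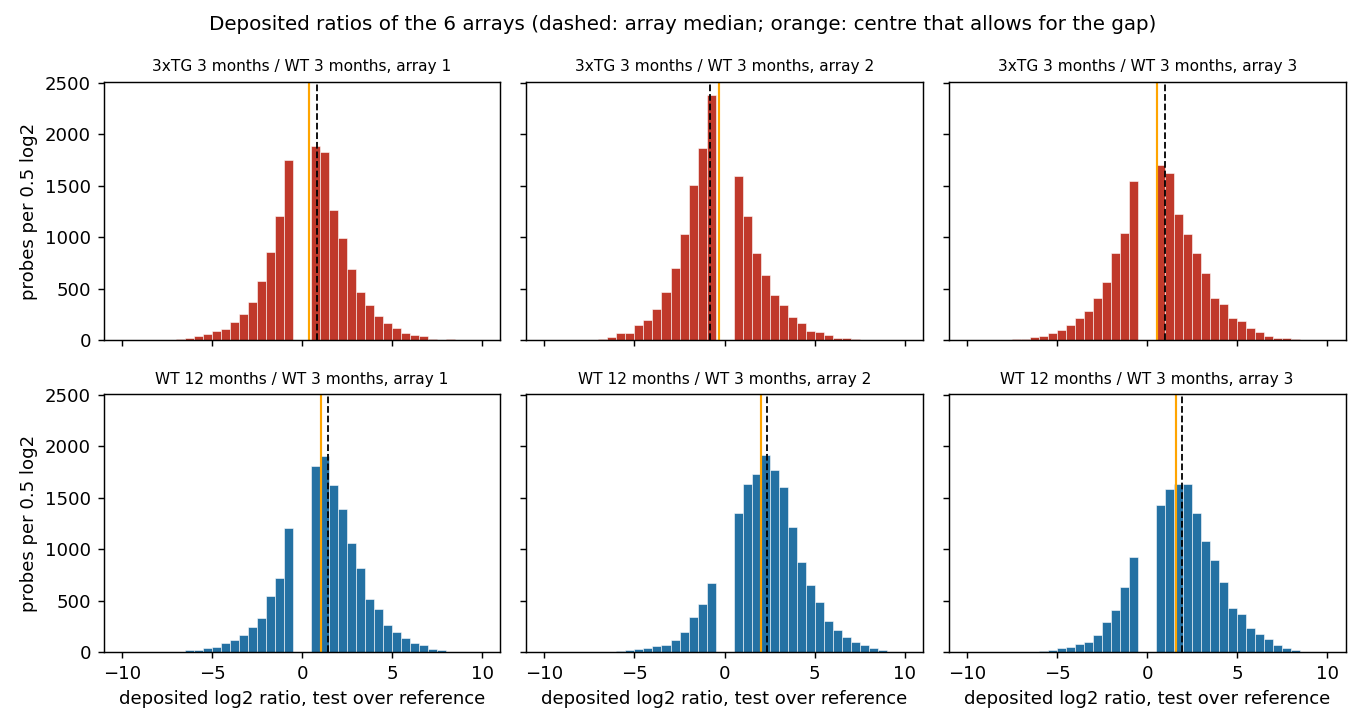
Number of probes (vertical axis) in bins of 0.5 of the deposited log2 ratio (horizontal axis) on each of the 6 arrays. The empty middle is the gap between -0.5 and 0.5, the dashed line is the array median, and the orange line is the centre of a normal curve fitted with the gap cut out; the ageing arrays sit to the right of 0, and the median of young 3xTG array 2 lies on the other side of the gap from arrays 1 and 3.

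The median of an array's listed values was subtracted from each of them, and "centred" values below are log2 ratios relative to that median. For a probe listed on all 6 arrays, centring adds 1.58 to the difference. The median difference of the 6988 probes tested was 0.47 with this centring, -1.12 without centring, -0.95 when arrays were centred on abundant transcripts (respiratory chain, glycolysis, ribosome and proteasome genes), and 0.24 with the centres that allow for the gap. Absolute directions therefore depend on the centring, and differences are best read against that of all genes. The difference also depended on how often a probe was listed. Its median was 0.12 for 3525 probes listed on 4 arrays, 0.63 for 2726 on 5 arrays and 1.22 for 737 on all 6.

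No probe passed an adjusted p of 0.05 in limma (0 of 6988, 0.0%; smallest adjusted p 0.443), so the genes below are described by their values. At an unadjusted p under 0.05, 472 probes were higher in young 3xTG and 301 were lower. That split turned to 48 higher and 979 lower without centring, to 55 and 896 with centring on abundant transcripts, to 375 and 378 with the gap-aware centres, and to 329 and 409 when young 3xTG array 2 was left out. The probes whose listed young 3xTG arrays all lay above every listed ageing array numbered 1784 (25.5%), and those with all arrays below numbered 969 (13.9%). The raw-file labels carry numbers from V57 to V66 and from V86 to V91, and ageing array 3 and young 3xTG array 1 carry the same number, V65. All ageing arrays and young 3xTG array 1 lay in the first run of numbers, and young 3xTG arrays 2 and 3 in the second. With the run as a block, which left 5995 probes to test, 222 were higher and 290 lower. Within the first run alone, which holds only young 3xTG array 1, the median difference of 5344 probes was 0.28.

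The 12 genes of smallest p on the higher side in young 3xTG were Pja2, Ywhah, Nudt4, Atp2b1, Fkbp3, Cdk13, Dnajc27, Enoph1, Meg3, Pdha1, Idh3b and Ddah1. They were picked by smallest p from probes on at least 5 arrays with no overlap between the comparisons, so their separation is how they were chosen. Differences ran from 3.43 to 7.25 log2 units, with standard errors (SE) of 0.92 to 1.48 and a limma adjusted p of 0.443 for each. They stayed positive without centring, at 1.86 to 5.89, and with abundant-transcript centring, at 2.00 to 5.79. In bulk tissue, fewer cells of a type and less RNA per cell cannot be told apart.

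Pja2, a ubiquitin ligase that targets regulatory subunits of protein kinase A, had the largest difference of the 12. Its centred values were 1.49, 2.36 and 3.14 on the young 3xTG arrays, and -3.24 and -6.60 on ageing arrays 1 and 3. All young 3xTG arrays were above the array median and both listed ageing arrays far below it, a difference of 7.25 ± 1.30 (SE, 3 against 2 arrays, 95% interval 4.33 to 10.17). Ywhah, which encodes the eta isoform of the 14-3-3 adaptor proteins, was at 4.23, 6.16 and 3.94 in young 3xTG and at -0.59 and -1.15 on ageing arrays 1 and 2. Under the median centring the young 3xTG arrays carried the distance (5.65 ± 1.08 SE), since ageing itself lay close to the array median. Without centring Ywhah did not keep all its signs, so this split depends on the centre.

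Nudt4, a phosphohydrolase of diphosphoinositol polyphosphates, showed the same form, with signs that none of the other centrings kept on all its arrays. It was at 8.34 and 5.36 on young 3xTG arrays 2 and 3, and at 0.18, -0.46 and -0.20 on the ageing arrays, a difference of 7.01 ± 1.31 (SE). Fkbp3, a nuclear immunophilin, was at 3.22, 4.55 and 6.29 in young 3xTG against -3.42 and 0.02 in ageing. Cdk13, a kinase of the RNA polymerase II tail, was at 3.67, 4.01 and 3.25 against -1.15 and -4.10. For both genes every young 3xTG array was above every ageing array, and the ageing arrays differed from each other by about 3 log2 units.

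Meg3, an imprinted long non-coding RNA made from the maternal allele, took the reverse form. Its centred values were 0.01 and -0.15 on young 3xTG arrays 2 and 3 and -3.94, -4.43 and -3.95 on the ageing arrays. Under the median centring, young 3xTG lay at the array median and the distance (4.04 ± 1.01 SE) came from the ageing arrays, which agreed closely. None of the other centrings kept the signs of Meg3 on all its listed arrays, so this split depends on the centre. Ddah1, an enzyme that breaks down asymmetric dimethylarginine, an inhibitor of nitric oxide synthase, was at 0.66, 2.08 and 2.65 in young 3xTG and at -3.32 and -3.03 on ageing arrays 2 and 3. Enoph1, an enzyme of methionine salvage, was at 0.89 and 2.42 against -6.0, -3.34 and -3.41.

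Energy and calcium genes were among the 12. Pdha1, the catalytic alpha subunit of pyruvate dehydrogenase, which feeds pyruvate into the citric acid cycle, was at 3.92, 5.10 and 6.47 in young 3xTG and at -0.27 and 1.34 on ageing arrays 1 and 2. Idh3b, a subunit of the NAD-dependent isocitrate dehydrogenase of that cycle, was listed on all 6 arrays, at 1.51, 2.93 and 2.98 against -0.64, -1.10 and -1.13 (difference 3.43 ± 0.92 SE). Its ageing arrays varied by less than its young 3xTG arrays, and the lowest young 3xTG array was still clear of the highest ageing array. Atp2b1, a plasma membrane calcium pump, was at 5.58, 3.94 and 2.04 against -2.12, -0.11 and -1.21, and Dnajc27, a Rab-like GTPase with a J domain, at 3.64, 3.97 and 1.02 against -1.96, -0.30 and -2.91.

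The 12 genes picked in the same way on the lower side were Rpgrip1, Tslp, Sbf1, Adgrd1, Afg3l1, Lrat, Sned1, Ift22, Nat8f2, Stpg3, Ppfia4 and Scgb2b2, with differences of -7.64 to -4.67 and a limma adjusted p of 0.443 for each. Without centring they were at -8.64 to -5.99. Several are best known from other tissues, such as Rpgrip1 and Lrat from the retina and Tslp from epithelia, and ratios carry no level, so how strongly the hippocampus expresses them is not shown by these values.

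Rpgrip1, a ciliary protein, was at -3.93 and -2.93 on young 3xTG arrays 1 and 3 and at 4.23, 3.33 and 5.09 on the ageing arrays. The comparisons lay on opposite sides of the array medians with no array between them (-7.64 ± 1.49 SE, 95% interval -10.98 to -4.31). Tslp, a cytokine, was at -1.90, -2.21 and -1.69 against 4.52 and 2.80, with close agreement among the young 3xTG arrays. Lrat, which esterifies retinol, was at -3.51, -1.45 and -2.46 against 2.69 and 1.71.

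Sbf1, a myotubularin-related pseudophosphatase, was the exception in form among the lower genes. It lay above the array median in both comparisons, at 1.08 and 1.86 on young 3xTG arrays 1 and 3 and at 6.25, 4.85 and 8.28 on the ageing arrays. The ageing ratio was the larger one, by 4.99 ± 1.22 (SE). Afg3l1, of the mitochondrial AAA proteases, was at -3.43 and -5.26 against 1.04, 1.26 and 0.23. Under the median centring its distance came mostly from the young 3xTG arrays. Ift22, of the intraflagellar transport machinery of cilia, was at -4.43 and -2.60 against 1.89, 0.74 and 1.87. Ppfia4, a liprin of presynaptic scaffolds, was at 0.16, -2.64 and -3.14 against 2.90 and 3.63, with young 3xTG array 1 apart from the other two.

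Adgrd1, an adhesion G protein-coupled receptor, was at -6.22 and -2.83 on young 3xTG arrays 1 and 3 against 2.57, 1.28 and 0.95, and Sned1, an extracellular matrix protein, at -3.53 and -6.46 against -0.19, 1.72 and 0.12. In both, the 2 young 3xTG arrays differed from each other by more than the ageing arrays did. Nat8f2, of the N-acetyltransferase family, was at -2.64 and -4.08 on young 3xTG arrays 2 and 3 against 1.195, 2.37 and 1.59. Stpg3 was at -2.60 and -5.27 against 2.46, 1.01 and 3.74, and Scgb2b2, a secretoglobin, at -0.75 and -3.35 against 3.74, 4.51 and 2.28. Of the 12 lower genes, 9 were unlisted on one of the young 3xTG arrays, so most of these values rest on 2 arrays of that comparison.

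**Figure D2:**
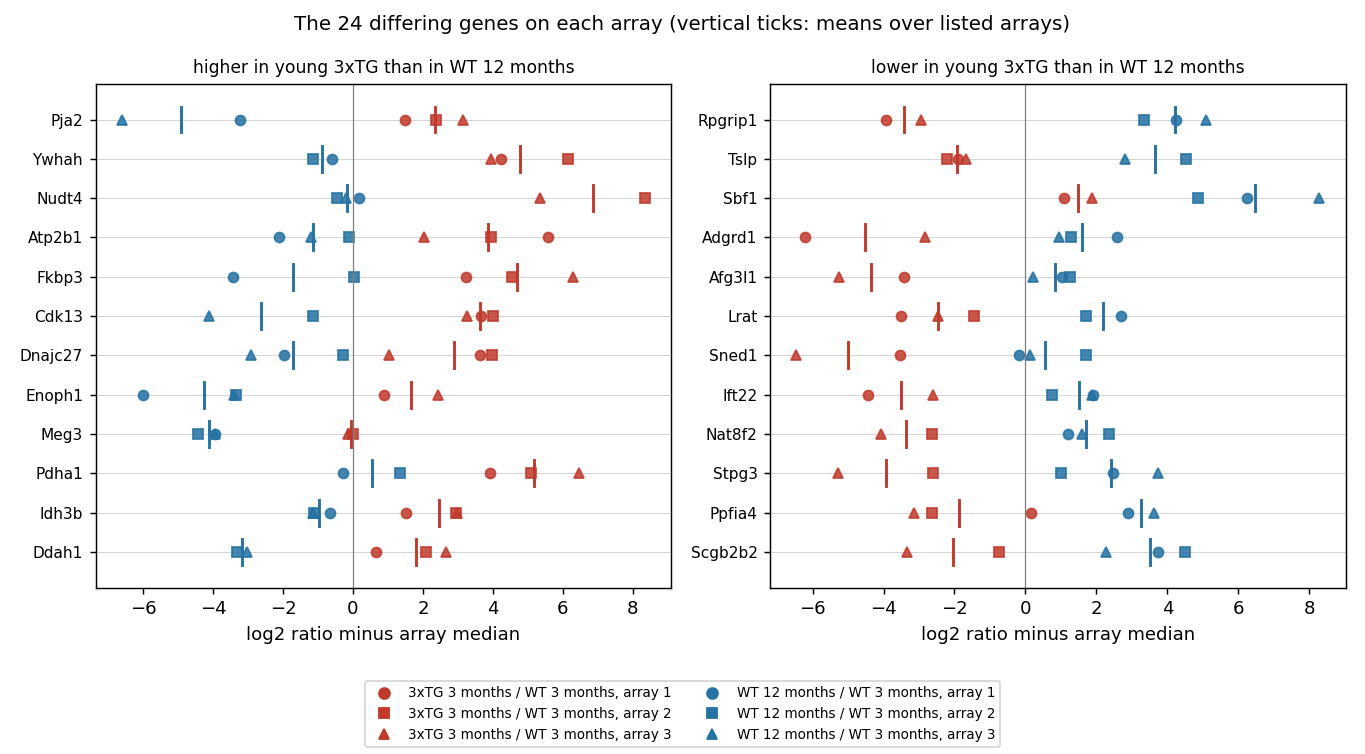
Centred log2 ratio (horizontal axis) of the 12 higher and 12 lower genes of smallest p in young 3xTG relative to ageing (vertical axis), 1 point per listed array; red points are 3xTG 3 months over WT 3 months, blue points WT 12 months over WT 3 months, and vertical ticks are means. The red and blue points of each gene do not overlap, which is how the genes were chosen, and Meg3, with red at the array median, contrasts with Ywhah and Nudt4, where blue is near it.

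All 24 genes kept their direction in each of the 22 alternative settings in which they had a value. The routes through the single reference mice gave the same directions. For the 12 higher genes the difference ran from 2.86 to 8.16 through mouse 15 (10 genes with a value) and from 2.62 to 9.74 through mouse 16 (12 genes). For the 12 lower genes it ran from -8.79 to -3.34 (11 genes) and from -7.64 to -3.90 (12 genes). The genes were chosen on these same arrays, so these ranges describe them and support nothing further.

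The 12 higher genes were also listed in the third comparison of the series, 3xTG over WT at 12 months, which has WT mice 24 and 25 in common with the ageing arrays. There their centred means ran from 2.22 to 4.60 with a median of 3.19, where the median of the 6099 tested probes with a value was 0.41. Cdk13, at 2.22, and Enoph1, at 2.94, were each listed on a single array there, and Nudt4 and Ddah1 each lacked a value on a single array. Meg3 was at 2.97, 2.93 and 2.96, Idh3b at 2.64, 2.44 and 2.45 and Atp2b1 at 3.28, 2.95 and 3.15 on the 3 arrays of that comparison. Among the lower genes, 9 had a value, from -5.39 to 2.31. Sbf1 was at -4.75, -4.96 and -4.02 and Rpgrip1 at -4.02, -8.36 and -3.80, while Nat8f2 was at 2.31 on the single array that listed it. A low or high ratio in the shared 12-month WT mice enters both comparisons, so these values are not independent of the contrast. The limma p used to pick the genes also took its spread from all 9 arrays. Close agreement among the arrays of the third comparison therefore helped a gene to be picked.

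Some probes had opposite signs in the comparisons. There were 2590 tested probes with a gene symbol on at least 5 arrays. Of these, 209 were above the array median on every listed young 3xTG array and below it on every listed ageing array. The reverse was seen in 63. The sign of a centred value depends on the centre. With the gap-aware centres 108 of the 209 and 47 of the 63 kept all their signs, and without centring 6 and 47 did. Of the 8 genes of smallest p in the first set, Pja2, Enoph1 and Ddah1 kept their signs under all 3 other centrings, while Atp2b1 and Dnajc27 kept them under none of the 3. All 8 in the reverse set, Rpgrip1, Tslp, Adgrd1, Afg3l1, Lrat, Ift22, Nat8f2 and Stpg3, kept theirs under all 3. The array medians are above 0 on the ageing arrays and on young 3xTG arrays 1 and 3, and below 0 on young 3xTG array 2. Taking the centring away moves every value by its array median, and how many of each set keep their signs follows from these shifts.

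Resemblance was also present. Of the 569 probes with a gene symbol listed on all 6 arrays, 57 were above the array median on all 6 and 145 were below it on all 6. In 29 and 50 of these, the difference between the comparisons was smaller than its own SE. Both comparisons used the same reference mice: mouse 15 on young 3xTG arrays 1 and 2 and ageing array 1, mouse 16 on the others. A transcript unusual in a reference mouse moves both comparisons alike. Every pair of arrays that shares a reference mouse across the comparisons also has the dyes the other way round, and every pair with different reference mice has the same dyes, so the shared reference and the dye cannot be told apart in a resemblance.

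Genes high in both comparisons were led by Serbp1, an mRNA-binding protein, at 2.81, 4.00 and 3.79 in young 3xTG and at 2.07, 4.28 and 7.64 in ageing. The arrays of the comparisons overlapped, and the difference was -1.13 ± 1.45 (SE, 95% interval -4.38 to 2.12). Rit2, a neuronal Ras-like GTPase, was the most even of the set, at 2.499, 2.84 and 3.08 against 2.43, 1.68 and 2.54 (difference 0.59 ± 0.89 SE, 95% interval -1.38 to 2.56). Dnajb9, a chaperone of the endoplasmic reticulum, was at 1.11, 2.66 and 3.72 against 2.72, 2.53 and 2.56. Cyc1, cytochrome c1 of respiratory complex III, was at 1.86, 3.00 and 3.90 against 1.49, 1.94 and 3.11. The set also held Fgf13, a fibroblast growth factor homologous factor of neurons, Wipi2, an autophagy protein, Hes1, a repressor downstream of Notch, and Eif4a2, a translation initiation helicase, each with mean ratios above 2 in both comparisons in log2 units.

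Of the 8 genes low in both, Nrgn, neurogranin, a calmodulin-binding postsynaptic protein, was at -4.18, -2.80 and -3.29 in young 3xTG and at -3.42, -5.69 and -3.87 in ageing. Its 6 arrays were all far below the array medians and overlapped (difference 0.91 ± 1.11 SE, 95% interval -1.62 to 3.43). Baiap2, a postsynaptic scaffold that binds actin regulators, was at -3.99, -1.47 and -4.49 against -3.67, -5.10 and -4.53. Nrxn2, a presynaptic adhesion molecule, was at -3.25, -2.26 and -3.71 against -3.31, -4.10 and -4.35, and Cers1, the neuronal ceramide synthase, at -4.93, -2.07 and -4.47 against -3.41, -4.06 and -3.09. For these genes young 3xTG array 2 was the highest of its comparison, and its centre is the one that lies across the gap.

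Scand1, Lypla2, a depalmitoylating thioesterase, Fam98c and Nolc1, a nucleolar phosphoprotein, completed the low set. All 16 resembling genes kept their signs on all 6 arrays under the 3 other centrings. Their differences moved with the centring, to -2.71 to -0.84 for the high set and -1.88 to -0.46 for the low set without centring. The 95% intervals of the 16 differences reached from -5.09 to 4.49, so a difference of several log2 units is not excluded by these arrays for some of them.

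**Figure D3:**
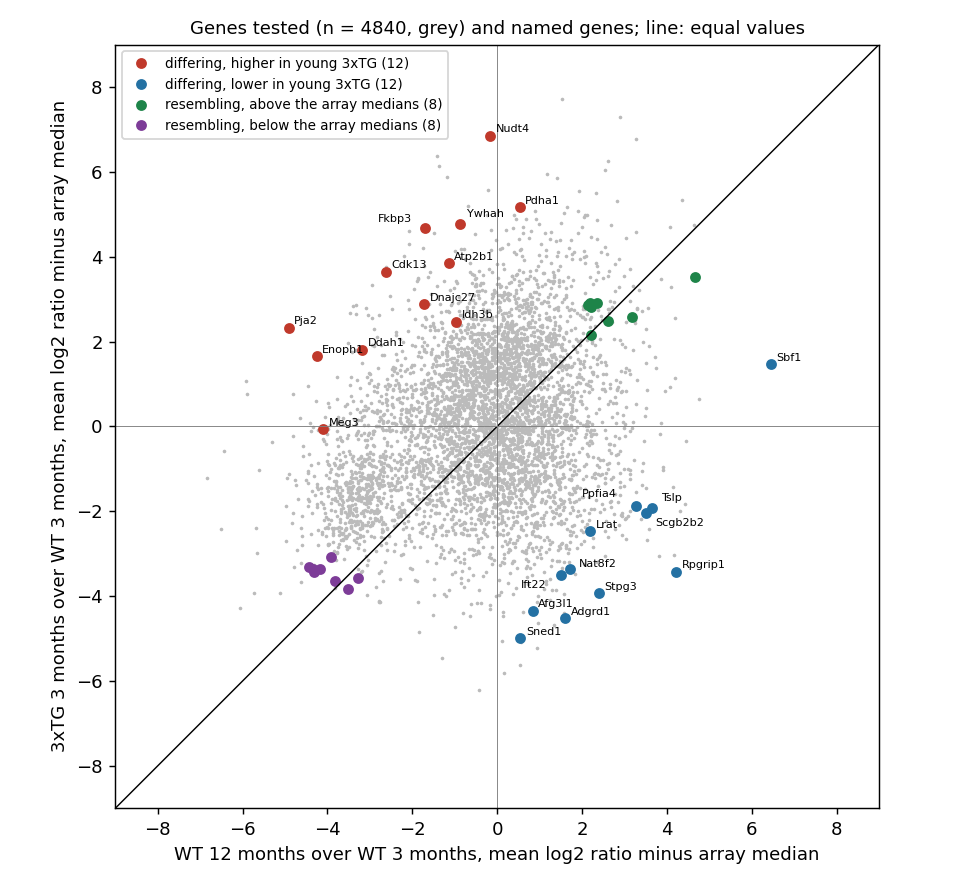
Mean centred log2 ratio of 3xTG 3 months over WT 3 months (vertical axis) against that of WT 12 months over WT 3 months (horizontal axis) for 4840 genes; both axes use the same reference mice, and the black line marks equal values. Differing genes lie far from the line and are labelled, and the 8 green and 8 purple resembling genes lie near it, above 2 and below -3 on both axes.

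Among gene lists with at least 5 tested genes, the markers of pyramidal cells had the highest median difference under the median centring. Gene values below are means over a gene's tested probes. Over all 4840 genes the median difference was 0.69, 2981 genes were above 0, 1357 had all young 3xTG arrays above all ageing arrays (28.0%) and 578 all below (11.9%). At an unadjusted p under 0.05, 380 were higher (7.85%) and 192 lower (3.97%). Of the 22 pyramidal cell markers on the array, 11 were tested, and 10 of these were above 0. Their median difference was 2.94, 8 of the 11 had arrays that did not overlap, all of them higher, and 6 had an unadjusted p under 0.05, all of them higher. List medians per array were 1.09, 1.56 and 1.14 in young 3xTG and -0.77, -1.34 and -0.93 in ageing, so both comparisons contributed under the median centring. The ageing array medians subtracted were 1.415, 2.335 and 1.955, so this split depends on the centre.

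Crym, a thyroid hormone-binding protein enriched in CA1, was at 1.63, 2.64 and 1.45 in young 3xTG and at -0.84, -1.34 and -0.93 in ageing (difference 2.94 ± 0.92 SE). The young 3xTG arrays were spread more widely than the ageing arrays and stood wholly above them. Nptx1, a secreted pentraxin that gathers AMPA receptors at synapses, was at 3.79 and 3.51 on young 3xTG arrays 2 and 3 and at 0.93, -0.01 and 0.93 in ageing. Bok, a BCL2 family member, was at 0.56, 1.44 and 0.83 against -0.81 and -3.24. Dcn, the proteoglycan decorin, was at 3.82 and 3.27 on young 3xTG arrays 1 and 3 against 1.17, -0.17 and 0.03. Pou3f1, a transcription factor that is the 1 marker below 0, was at -3.86, -2.65 and -4.44 against -0.73, -4.48 and -2.85, with the comparisons overlapping; it is named here after its values were seen.

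The pyramidal list lay 2.25 above the median of all genes, 2.12 above it without centring, 1.91 with abundant-transcript centring, 2.19 with the gap-aware centres and 2.01 without young 3xTG array 2. A change of centre shifts all genes listed on the same arrays alike. It can move this distance only through missing values, here and in the other lists set against all genes. Other settings moved the pyramidal list more. It was 0.48 above the median of the genes listed on all 6 arrays, where 3 of its genes remained, 1.43 with the run of array numbers as a block and 0.69 within the first run, which holds 1 young 3xTG array. Without centring 5 of the 11 had all young 3xTG arrays above and 2 all below, where 6.14% and 29.6% of all genes did. Counts of separate arrays moved in this way in the other lists too, and the uncentred counts are given beside them. Each such count below is to be read against all genes, at 28.0% higher and 11.9% lower with the median centring. The uncentred counts are to be read against 6.14% and 29.6%.

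Markers of dentate granule cells were evenly divided; the difference between the 2 marker lists was not tested. Of 20 on the array, 8 were tested, 4 were above 0 and the median difference was -0.13, with 1 gene higher and 2 lower on all arrays (0 and 4 without centring). Trpc6, a calcium-permeable channel, was at -1.39 and -0.36 on young 3xTG arrays 1 and 2 and at 1.47 and 2.72 on ageing arrays 1 and 3. Tdo2, which opens the indole ring of tryptophan, was at -0.26 and -2.91 on young 3xTG arrays 2 and 3 against 1.99, 0.49 and 0.03. Neurod1, a transcription factor of granule neurons, was at 1.62 and 1.67 against 4.04, 1.49 and 1.26, with overlap; it too was named after its values were seen. The list lay below the median of all genes by 0.81, and above it by 0.24 when young 3xTG array 1 was left out.

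**Figure D4:**
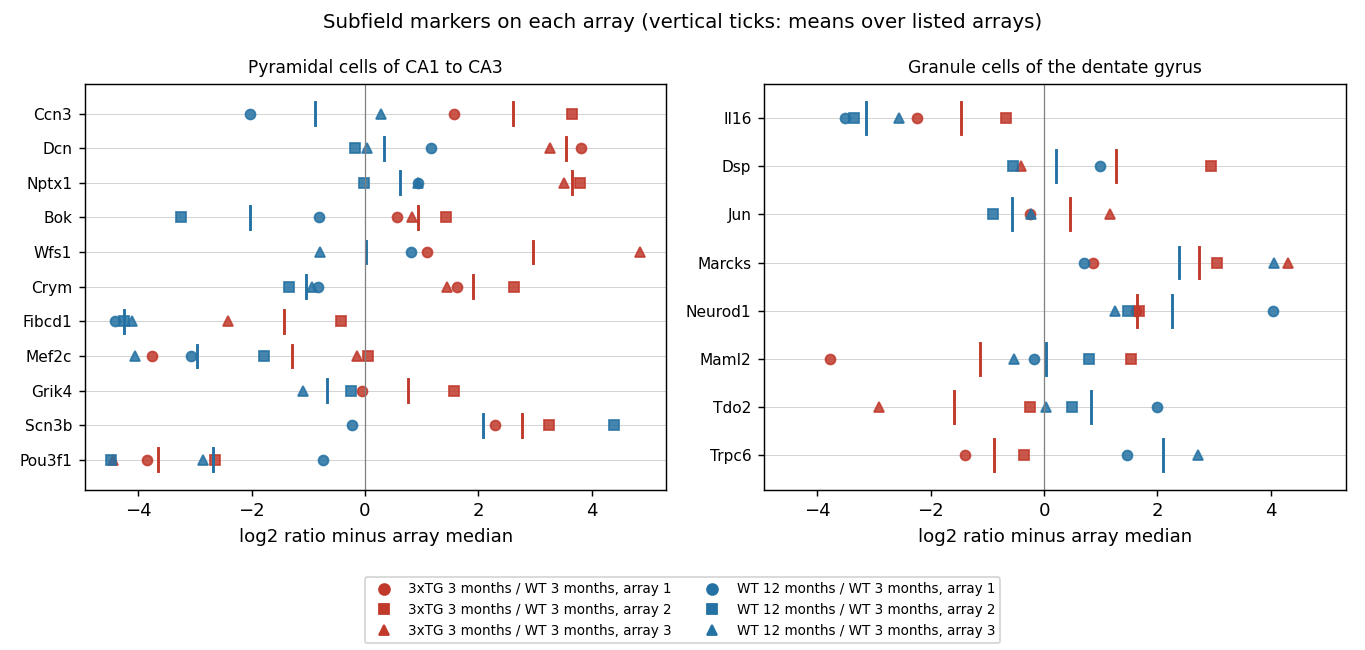
Centred log2 ratio (horizontal axis) of each tested marker of CA pyramidal cells (left) and dentate granule cells (right), 1 point per listed array, with red for 3xTG 3 months over WT 3 months, blue for WT 12 months over WT 3 months and vertical ticks for means. On the left 8 of 11 markers have all red points to the right of all blue points, and on the right 1 of 8 does.

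Markers of other cell types in the hippocampus held genes on both sides. Microglia markers had 5 of 10 tested genes above 0 and 5 below, and a median of 0.45, under the 0.69 of all genes. Ctss, a lysosomal protease of microglia, was at 1.29, 2.21 and 2.87 in young 3xTG against -0.43, -1.51 and -0.55 in ageing, a difference of 2.95 ± 1.01 (SE). Fcer1g, among the 5 below 0, differed by -2.51 ± 2.30 (SE), with overlap. Astrocyte markers had 8 of 11 above 0 and a median of 1.17. Gfap, the intermediate filament of reactive astrocytes, was at -1.79 and -1.62 on young 3xTG arrays 1 and 3 and at 2.07 and 1.79 on ageing arrays 1 and 2, below the other astrocyte markers (difference -3.63 ± 2.16 SE). Mlc1, an astrocyte membrane protein, was at 0.51 and -0.17 against -4.05 and -2.69.

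Oligodendrocyte and myelin markers had 7 of 10 above 0 and a median of 0.72, close to that of all genes. Mbp, myelin basic protein, was at 1.68 and 2.68 on young 3xTG arrays 1 and 3 against -0.85, -1.48 and -0.61, and Car2, a carbonic anhydrase of oligodendrocytes, at 2.80, 3.76 and 5.18 against 1.22, 0.22 and 0.48. In both genes every young 3xTG array was above every ageing array. The 3 markers below 0 included Cspg4, which differed by -2.77 ± 1.91 (SE), with overlap. The part of cell composition in the differences of other genes was not tested.

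Genes of energy metabolism had medians above that of all genes. They were also listed on more arrays. The mean was 4.82 for the first list below, 5.15 for complexes II to V and 4.8 for complex I, against 4.67 for all genes. The part of listing in the medians of this and the next lists was not tested. Glycolysis, pyruvate dehydrogenase and citric acid cycle genes had 14 of 17 tested genes above 0, a median of 1.55, 9 genes higher on all arrays and 0 lower (5 and 2 without centring). Besides Pdha1 and Idh3b, Pdhb, the beta subunit of pyruvate dehydrogenase, was at 1.05, 2.58 and 1.22 against -0.71 and -3.65, and Dld, the lipoamide dehydrogenase that this complex shares with others, at 1.65 and 3.78 on young 3xTG arrays 1 and 2 against -0.81 and -1.60. The 3 pyruvate dehydrogenase genes differed by 3.80 to 4.63. Gapdh, a glycolytic enzyme named after its values were seen, was at 2.81 and 0.12 against 2.75 and 1.95, with overlap.

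Respiratory complexes II to V, which pass electrons to oxygen and make ATP, had 11 of 13 genes above 0, a median of 1.61 and 8 higher against 0 lower on all arrays, which turned to 0 higher and 2 lower without centring. Uqcrc2, a core subunit of complex III, was at 1.63, 2.57 and 2.503 against -0.91, -0.31 and -0.61 (difference 2.84 ± 0.92 SE). Complex I, which takes electrons from NADH, had 12 of 15 above 0, a median of 1.11 and 6 higher against 0 lower (2 and 3 without centring), with Ndufs4 at 0.13 and 0.82 on young 3xTG arrays 2 and 3 against -3.06 and -3.15 on ageing arrays 2 and 3. The abundant-transcript centring uses these 3 lists, so it cannot be read for them. Relative to the median of all genes they lay 0.87, 0.92 and 0.42 higher, and without centring 1.16, 1.15 and 0.78 higher. The complex I list lay below it under 2 alternatives, at -0.61 with the experiment number as a replicate block and at -0.50 within the first run of array numbers.

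Lysosome, proton pump and autophagy genes had 22 of 25 tested genes above 0, a median of 1.92 and 12 genes higher against 1 lower on all arrays (5 and 4 without centring). At an unadjusted p under 0.05, 6 were higher and 0 lower, where 7.85% and 3.97% of all genes were. Atp6v1a, the catalytic subunit of the vacuolar proton pump that acidifies lysosomes, was at 0.15 and 1.03 on young 3xTG arrays 2 and 3 against -2.87, -3.06 and -3.66 (difference 3.79 ± 1.05 SE). Laptm4a, a lysosomal membrane protein, was at 1.84, 3.45 and 3.05 against -0.05, -0.43 and -0.52, and Map1lc3b, the LC3 protein of autophagosome membranes, at 1.54, 2.42 and 0.40 against -2.0, -1.39 and -2.52. Young 3xTG arrays were wholly above in all 3 genes. The list lay 0.64 to 1.56 above the median of all genes over the alternatives. Its genes were listed on a mean of 5.24 arrays, against 4.67 for all genes.

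Calcium signalling genes had 17 of 20 above 0, a median of 1.55 and 10 higher against 0 lower on all arrays (3 and 4 without centring). Besides Atp2b1, Calm3, a calmodulin gene, was at 0.38, 1.43 and 2.02 against -0.69, -0.82 and -1.09, and Ppp3cb, a catalytic subunit of calcineurin, at 1.56, 2.44 and 1.57 against -1.64 and -0.50. Translation factors had 21 of 24 above 0, a median of 1.79 and 11 higher against 1 lower, which turned to 1 and 4 without centring; Eif4a1, an initiation helicase, differed by 3.48 ± 1.28 (SE) and Eif3f, of the eIF3 complex, by 2.57 ± 1.09 (SE). Splicing factors had 17 of 22 above 0, a median of 1.70 and 12 higher against 2 lower (4 and 4 without centring). Without centring the medians of calcium signalling genes, translation factors and splicing factors were -0.09, 0.16 and 0.13, against -0.92 for all genes. Relative to the median of all genes, the lowest values of the same lists over the alternatives were 0.32, -0.16 and 0.04. Their genes were listed on a mean of 4.9, 4.79 and 5.14 arrays, against 4.67 for all genes.

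Neurotrophin and plasticity genes were the most spread. Of 20 tested, 14 were above 0 with a median of 0.73, near that of all genes. On all arrays 8 were higher and 2 lower (5 and 6 without centring). At an unadjusted p under 0.05, 6 were higher and 1 was lower, where 7.85% and 3.97% of all genes were. Ntrk3, the receptor of neurotrophin-3, was at 7.64 and 5.10 on young 3xTG arrays 1 and 2 against -4.07 and 1.25 on ageing arrays 1 and 2 (difference 7.78 ± 2.03 SE). Gap43, a growth cone protein, was at 7.72 and 4.04 on young 3xTG arrays 2 and 3 against -2.77 and 0.39 (7.07 ± 1.90 SE). Enc1, an actin-binding protein of neurons, was at 2.35, 2.88 and 3.63 against -0.96 and -0.78. These were the 3 largest differences of the list, each with young 3xTG wholly above ageing, while Stmn4, a stathmin that binds tubulin, was at -2.97 and -3.52 against 0.39 and 3.69.

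Cytokine and chemokine genes lay lower than most lists. Of 18 tested, 11 were above 0 with a median of 0.25. On all arrays 3 were higher and 3 lower (0 and 5 without centring). At an unadjusted p under 0.05, 0 were higher and 3 lower, where 7.85% and 3.97% of all genes were. Cxcl16, a membrane-bound chemokine, was at -4.22 and -8.19 on young 3xTG arrays 1 and 3 against -0.27 and -0.60. Il6st, the gp130 receptor of interleukin-6 cytokines, was at 0.66, -0.95 and -1.73 against 2.77 and 2.85, and Ccl7, a monocyte chemokine, at -2.48, -1.06 and -1.80 against -0.31, 1.94 and 2.39. All young 3xTG arrays of these 3 genes lay below all ageing arrays. Immediate early genes, which neurons switch on within minutes of activity, had 4 of 8 above 0, a median of -0.08 and, under the median centring, no gene whose arrays were separate. Without centring and with abundant-transcript centring 4 of the 8 were wholly lower, where 29.6% and 26.9% of all genes were, and with the gap-aware centres 1 was wholly higher. Npas4, an activity-dependent transcription factor, was at -5.39, -1.88 and 0.88 against 2.04, -2.85 and -0.14.

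**Figure D5:**
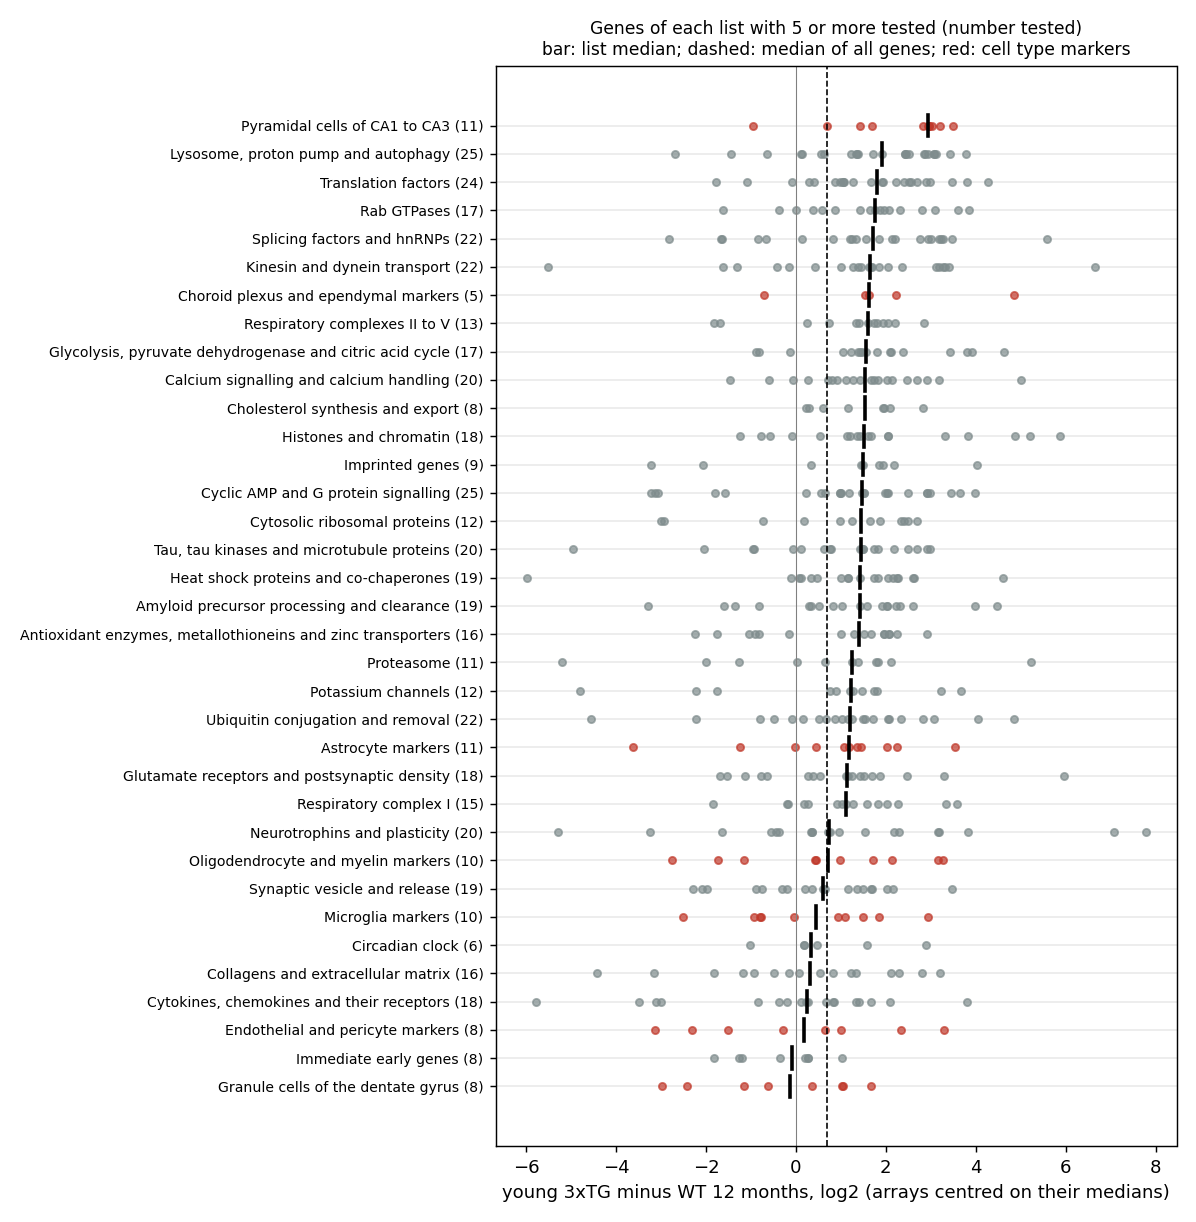
Difference of young 3xTG minus WT 12 months in log2 units (horizontal axis) for each tested gene of the lists with at least 5 tested genes (vertical axis, number tested in brackets). Black bars are list medians, the dashed line is the median of all genes at 0.69, and red points mark cell type markers; pyramidal cell markers are at the top and granule cell markers at the bottom.

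For the genes behind the 3xTG transgenes the arrays gave limited values. Which sequences the probes match is not given in the sources used here, so whether they detect the human transgenes was not tested. For App, the amyloid precursor protein, the probe listed on all 6 arrays was at 2.08, 3.55 and 2.80 in young 3xTG and at 1.94, -0.06 and 0.81 in ageing, a difference of 1.91 ± 0.98 (SE, limma adjusted p = 0.474) that was 0.33 without centring. A second App probe, at 4.44 and 4.49 on young 3xTG arrays 2 and 3, and -0.17 on ageing array 3, was listed too seldom to be tested. Thy1, whose regulatory sequences drive the transgenes, was at 0.24, 1.52 and 1.16 against -2.17 and -2.89 (3.502 ± 1.01 SE, limma adjusted p = 0.443). Mapt, the tau gene, was listed on 1 young 3xTG array, at -0.16, and at -0.83, -3.58 and -2.71 in ageing, and was not tested.

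Genes that process or clear the amyloid precursor had 15 of 19 above 0 and a median of 1.43. Apba2, an adaptor that binds the tail of APP, was at 3.25 and 2.51 on young 3xTG arrays 1 and 2 against -4.47, -0.18 and -0.17. Tmed10, a trafficking protein of the early secretory pathway, was at 0.88, 1.42 and 1.42 against -1.99, -1.35 and -0.74, and Itm2b, a membrane protein that binds APP, at 1.90, 2.36 and 3.14 against 0.67, 0.24 and -0.17. Mme, neprilysin, a peptidase that degrades amyloid beta, went the other way, at -2.83 and -0.06 against 2.32 and 1.39. The 4 genes had arrays that did not overlap. Over the list 7 were higher (36.8%) and 1 lower (5.26%), where 28.0% and 11.9% of all genes were. Without centring 0 were higher and 3 lower.

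Tau, tau kinase and microtubule genes had 15 of 20 above 0, a median of 1.45 and 6 higher against 2 lower on all arrays (2 and 4 without centring). Ppp2ca, the catalytic subunit of protein phosphatase 2A, which removes phosphate from tau, was at 0.47, 1.44 and 0.01 against -1.95 and -2.74. Map2, the dendritic microtubule protein, was at -7.52, -2.97 and -1.54 against 1.18 and 0.72, and Map4, a widely expressed one, at -1.74 and -0.27 against -3.65, -3.52 and -4.58. Map2 and Map4 thus lay on opposite sides, by -4.96 ± 1.93 and 2.91 ± 1.19 (SE), and no gene of either list passed the adjusted threshold.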

How the data were processed

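The members, the gene lists and the tests were chosen with earlier results of these data known. The values used are the log2 ratios the authors deposited, 1 per probe and array, read as test over reference; how they were background-corrected, filtered and normalized, and to which log base, is not given in the sources used here. Intensities were not used. Within each comparison, arrays of opposite dye orientation correlated positively (0.197 to 0.308 over probes); the overall sign rests on the labels. Gene symbols came from the platform annotation: 21020 of 29922 probes had 1 symbol and 8902 none; against the GRCm38.p6 RefSeq table, 13905 of 16675 symbols needed no change, 2728 were updated and 42 were left as they stood.

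Every array had the median of its values subtracted. Probes listed on at least 2 arrays of each comparison entered a limma 3.58.1 (R 4.3.3) fit of all 9 arrays, with a coefficient per comparison and at most 6 residual degrees of freedom. Because arrays shared mice, standard errors were rescaled, taking the variance between mice as 0.169 of that between arrays (a REML estimate from 737 probes present on all 6 arrays). P-values were two-sided, moderated by eBayes and adjusted by Benjamini-Hochberg, threshold 0.05. They measure the spread among arrays, which is partly technical. The fit was tested on simulated data with the same pattern of missing values. Of simulated differences of 6 log2 units 17% were called at the adjusted threshold, and of those of 3 units 0%. An absence of called probes is therefore not an absence of differences.

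Named genes have 1 symbol. Differing genes: listed on at least 5 of the 6 arrays, arrays not overlapping, the 12 of smallest p on each side. Opposite genes: one sign per comparison, the 8 of smallest p each way. Resembling genes: one sign on all 6 arrays and a difference below its SE, the 8 per direction with the largest smaller mean. Lists: up to 4 genes of smallest p. App, Mapt and Thy1 bear on the labels; 1 further item is not reported here. Gene lists get no test. Precision is limited by the number of arrays and by 2 mice per group. Alternatives covered centring, scaling, covariance, dye, blocks, filters, probe averaging and leaving out each array; the gap-aware centre was added after the values had been seen.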

Additional observations from a re-analysis of the deposited data

How the results depend on the processing

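In all 22 alternatives limma called 0 probes, with smallest adjusted p-values of 0.0929 to 0.687. The counts at an unadjusted p under 0.05 (472 higher, 301 lower) moved most. Without centring they were 48 and 979, and with centring on abundant transcripts 55 and 896. Probes listed on all 6 arrays gave 167 and 21 of 737, no filter on missing values 790 and 737 of 19287, and unlisted values set to 0 719 and 125. With the array number run as a block 222 were higher, and within the first run 121. The experiment numbers do not pair the arrays (correlations of -0.0282 to 0.0174 between same-numbered deviations, 737 probes); with the experiment number as a replicate block the counts were 211 and 178 of 4607. Leaving out each array in turn gave 329 to 564 higher and 241 to 409 lower, the extremes 329 and 409 both without young 3xTG array 2. Of 39 lists, 16 kept one sign against the median of all genes in every alternative with a value. Signal over background is unknown, and values inside the gap cannot be recovered.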

Other observations

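Other gene groups in the contrast of young 3xTG with WT at 12 months had fewer tested genes or were more mixed. Their counts above 0 are to be read against 2981 of 4840 for all genes. Glutamate receptor and postsynaptic genes had 13 of 18 above 0 and a median of 1.13; Grm2, a presynaptic metabotropic receptor, was at 5.11 and 3.32 on young 3xTG arrays 1 and 3 and at -6.27, -1.24 and 2.24 in ageing, and Gria1, an AMPA receptor subunit, at -1.88 and -0.76 on young 3xTG arrays 1 and 2 against -3.23, -3.92 and -4.24. GABA receptor genes had 4 of 4 above 0 and a median of 2.47; Gabrb1 was at 1.46, 3.11 and 4.77 against -0.38 and 0.16. Synaptic vesicle genes had 12 of 19 above 0 and a median of 0.59, close to that of all genes at 0.69. Among 12 potassium channel genes, Kcnj11, a pore subunit of the ATP-sensitive channel, was the lowest, at -4.81 ± 1.16 (SE), and the list median was 1.23.

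Kinesin and dynein genes had 17 of 22 above 0 and a median of 1.64, with Klc1, a kinesin light chain, at 6.65 ± 1.94 (SE) and Dync1li1, a dynein light intermediate chain, at -5.52 ± 1.73 (SE). Heat shock and co-chaperone genes had 17 of 19 above 0, with Hspb2, a small heat shock protein, at -5.98 ± 1.81 (SE). Rab GTPases, which direct membrane traffic, had 15 of 17 above 0 and a median of 1.75. Without centring the medians of the kinesin and dynein, heat shock and Rab lists were 0.10, 0.002 and 0.09, against -0.92 for all genes. Relative to the median of all genes, their lowest values over the alternatives were -0.15, 0.09 and -1.20. Their genes were listed on a mean of 4.95, 5.21 and 4.88 arrays, against 4.67 for all genes. Cholesterol genes had 8 of 8 above 0 and a median of 1.54, and 2 of the 8 (25.0%) were wholly higher, where 28.0% of all genes were. Among imprinted genes Meg3 differed by 4.04, Igf2 by 2.18 and Gnas by -3.22. None of these genes passed the adjusted threshold in limma.

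Endothelial and pericyte markers had 4 of 8 above 0 and a median of 0.18, and choroid plexus and ependymal markers 4 of 5 and 1.63, with Ttr, transthyretin, at -0.92 and 1.51 on young 3xTG arrays 2 and 3 against -1.27 and -1.41. Inhibitory interneuron markers had 2 of 4 above 0 and blood cell markers 1 of 2.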
